A study of Homo sapiens with 4 samples.

Results

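Peptides are shown to CD8+ T cells by MHC class I molecules, and 9 genes of this machinery were examined for binding of their transcripts by YTHDF1. The genes were HLA-B, HLA-C, HLA-E, HLA-F, B2M, TAP1, TAP2, TAPBP and NLRC5, taken as a set by their known role. They were chosen with earlier results of these data known. Every row of the deposited peak table that carries one of these symbols was taken. A window was listed for 7 of the 9 genes, with 27 windows in all out of 26819 distinct windows in 7550 genes. HLA-E and HLA-F had no listed window. All 27 windows lay on the main chromosomes, and none was found on another scaffold.

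The windows came from RNA immunoprecipitation sequencing (RIP-seq), in which RNA bound to a protein is recovered together with that protein and sequenced in parallel with total RNA (input). SNU638 cells, an established human gastric cancer line, overexpressed YTHDF1, were starved of serum over 24 h and then received 10 ng/ml of IFN-γ over a further 24 h. Of the 4 libraries, 2 biological replicates were immunoprecipitates (IP-YTHDF1) and 2 were inputs (Input), and both groups carried the overexpression and the IFN-γ treatment. Per the study's methods the protein was pulled down through a FLAG tag, so the windows describe the overexpressed, tagged protein. No untreated library was analysed here, and the values describe binding in the presence of IFN-γ, not a change caused by it. The table holds 1 signal value, 1 p-value and 1 q-value per 50 bp window for IP-YTHDF1 against Input. A window may rest on 1 replicate, since the study describes its peaks as a union over replicates. The table gives no value per library, so the depth is unknown here, no spread between replicates can be given and no test between genes was run. The signal value is a score by the authors with no stated scale, and it was used only to order windows within the table. The table gives no expression level either, so the lack of a listed window does not show a lack of binding.

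An MHC class I molecule is made of a heavy chain, encoded by the HLA class I genes, and a light chain, beta-2-microglobulin. Peptides cut by the proteasome in the cytosol are carried into the endoplasmic reticulum by the TAP transporter, a dimer of TAP1 and TAP2, and tapasin, the product of TAPBP, bridges the transporter and the empty class I molecule. NLRC5 is the transcriptional activator of the class I genes, and IFN-γ is known to raise the expression of this whole group. YTHDF1 is a cytoplasmic reader of N6-methyladenosine (m6A), a methyl mark on adenosines of mRNA.

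Listed windows were common among these genes but mostly low in signal value. A listed window was present for 7 of 9 genes (77.8%), beside 31.8% of 20052 protein-coding genes of RefSeq. Most of the 9 genes lie in the MHC region of chromosome 6, where 51 of the 140 RefSeq protein-coding genes from HLA-F to TAPBP (36.4%) had a listed window. Neither share takes account of which genes SNU638 cells express. The signal values of the 27 windows ran from 0.74 in HLA-C to 2.41 in NLRC5, with a median of 1.39, beside a median of 1.84 over all listed windows. Of the 27 windows, 21 lay under the table's median, and 9 were among the lowest 10% of all windows (signal values of 1.23 and below). Compared by the strongest window of each gene, 6 of the 7 genes fell under the median of 2.23 for listed protein-coding genes, and NLRC5 lay above it. The strongest windows of TAP1, HLA-C and TAPBP were among the lowest 10% of such genes. Stricter limits shortened the list. With q-values limited to 0.001, 5 of the 9 genes and 11 of the 27 windows (40.7%) were left, beside 21.2% of RefSeq protein-coding genes and 43.7% of all listed windows. Under a Bonferroni limit over all windows tested in listed genes (a p-value of 1.52e-07), 1 of the 9 genes was left, beside 12.4% of RefSeq protein-coding genes, so at this limit the share of genes was not above the background.

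**Figure D1:**
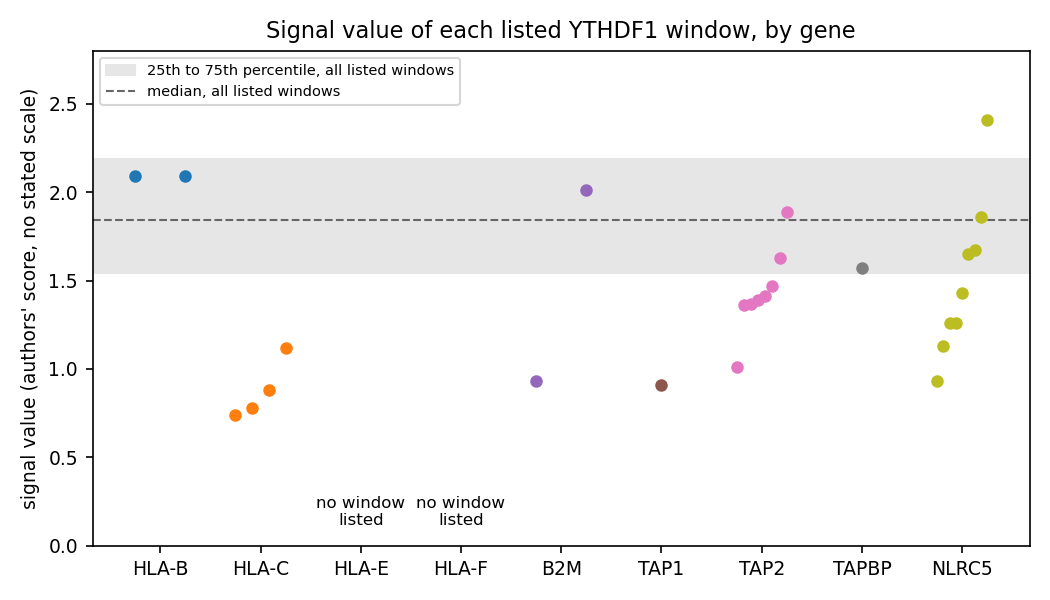
Signal value of each listed 50 bp window (points, authors' score on the y axis) for the 9 genes on the x axis, with the median (dashed line, 1.84) and the 25th to 75th percentile (grey band, 1.54 to 2.19) of all listed windows. All 4 HLA-C windows and the TAP1 window lie under the band, and 1 NLRC5 window, at 2.41, lies above it.

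Among the classical heavy chains, HLA-C carried 4 windows, among them the 3 lowest signal values of the group. HLA-C (ENSG00000204525, minus strand of chromosome 6, RefSeq interval 31268749 to 31272092 in GRCh38) had a window at 31271750 to 31271799 with a signal value of 0.74, a p-value of 0.001867 and, after adjustment, a q-value of 0.01182. The adjacent window at 31271700 to 31271749 had a signal value of 0.78 and the same q-value. At 31271600 to 31271649 the signal value was 1.12 and the q-value 0.04282, and at 31270350 to 31270399 they were 0.88 and 0.01182. Of these windows, 3 thus sat within 0.443 kb of the RefSeq 5′ end and the remaining window 1.69 kb from it. The strongest HLA-C window was stronger than the strongest window of only 0.599% of listed protein-coding genes. No HLA-C window reached a q-value of 0.001. The HLA class I genes are close copies of each other, and the handling of reads that match several copies is not given in the sources used here, so the windows of this family are uncertain as to their copy of origin.

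HLA-B (ENSG00000234745) had 2 windows, and neither lay in the gene body given by RefSeq, 31353875 to 31357179 on chromosome 6. The windows at 31280742 to 31280791 and at 31307242 to 31307291 were on the minus strand, between HLA-C and HLA-B, 73.1 kb and 46.6 kb outside the RefSeq interval on its 3′ side. The authors' gene model that assigned them to HLA-B is not given in the sources used here. Both windows had the same signal value of 2.09, the same p-value of 1.78e-05 and the same q-value of 0.00065, although their starts lay 26.5 kb apart. Equal values within a gene were present in 662 groups of windows, which held 1441 of the 26819 listed windows. Of these groups, 192 spanned more than 10 kb. The more distant window shared 26 bp with a window on the opposite strand that the table assigns to RPL3P2, a ribosomal protein pseudogene, with a signal value of 3.39 and a p-value of 1.11e-15. The other window lay inside the RefSeq interval of the lncRNA LOC112267902. No window was therefore listed within the HLA-B gene body itself, and with these windows left out 6 of the 9 genes and 25 windows remained.

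Of the non-classical heavy chains, HLA-E, which presents leader peptides of other class I molecules to NK cells, and HLA-F had no listed window. HLA-G, a further non-classical heavy chain, is not among the 9 genes and was counted with the class I-like molecules. It had 1 window, with a signal value of 2.07. Windows were listed on the strand opposite to HLA-F. HLA-F-AS1, a minus-strand antisense lncRNA, had 9 windows, of which 6 overlapped the RefSeq interval of HLA-F (29723434 to 29738532) at its 3′ end, between 29738102 and 29738551. Their signal values ran from 1.65 to 2.58, and the smallest p-value was 2.81e-09. The remaining 3 lay between 29747202 and 29747351. The libraries were made with a stranded kit per the study's methods, but whether the counting used the strand is not given in the sources used here.

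The light chain gene B2M (ENSG00000166710, plus strand of chromosome 15) had 2 windows of unequal strength at the start and in the body of the gene. The window at chr15:44711538-44711587 began 21 bp after the RefSeq start of B2M and had a signal value of 2.01, a p-value of 1.48e-06 and a q-value of 2.52e-05. It was stronger than 63.6% of all listed windows. The window at 44715588 to 44715637, 4.07 kb from the start, had a signal value of 0.93, under which only 1.48% of listed windows fell, and yet a p-value of 1.42e-05 and a q-value of 0.000121. Both windows passed a q-value of 0.001. The sequence of the window near the start is shown because it is the 1 window of the 9 genes that the promoter sequences of RefSeq (GRCh38.p14) cover in full. The sequence that covers it is the entry of another gene, PATL2, not that of B2M. It is given 5′ to 3′ on the plus strand, with the ATG at positions 44711547 to 44711549, the known start codon of B2M, in capitals. The 21 bases before it, from the RefSeq start of the gene, follow, with a match to the m6A consensus in capitals.
B2M window: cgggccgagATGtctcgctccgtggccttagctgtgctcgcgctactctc
B2M bases before the window: attcctgaagcTGACAgcatt

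The m6A consensus, known as DRACH, has 5 letters: A, G or T, then A or G, then AC, then A, C or T. It was searched on the strand of the gene. The B2M window held no match. The match nearest before it, TGACA, lay at 44711528 to 44711532, so the window held a match once 50 bases were added on each side. Among 947 listed windows of all genes that lie wholly inside a promoter sequence, 39.6% held a match within the 50 bp and 23.7% held the core GGAC. In the 489 of them that could be widened by 50 bases on each side, to 3 times the width, 75.5% held a match and 56.4% held GGAC, which the widened B2M window did not. In the first 50 transcribed bases of all 35116 promoter sequences, the width of a window, 49.6% held a DRACH match and 18.9% held GGAC. The share among the 947 windows was thus lower for DRACH and higher for GGAC. These windows are only a part of the 26819 listed, can lie anywhere in a promoter sequence and come from fewer genes. Enrichment of DRACH in the listed windows was therefore not tested. Over its RIP-seq data, the study reports DRACH as the motif that YTHDF1 prefers. The match is a description of letters, and methylation of these adenosines was not measured in these libraries.

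**Figure D2:**
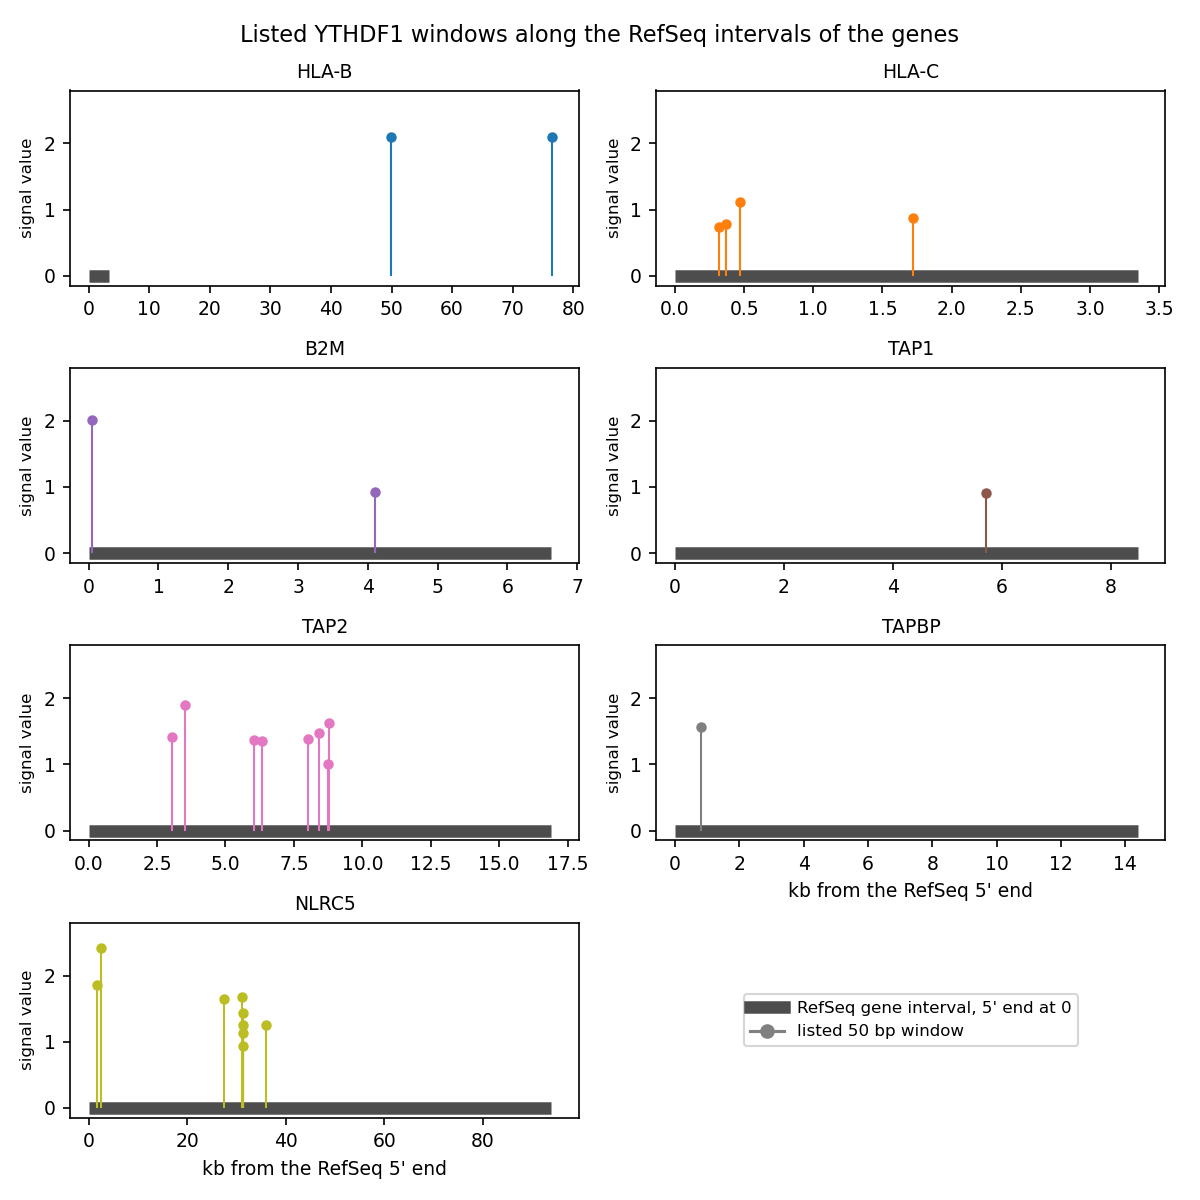
Listed windows of the 7 genes (points on stems, height gives the signal value) at their distance in kb from the RefSeq 5′ end of each gene, with the RefSeq interval drawn as a dark bar from 0. The 2 HLA-B windows lie beyond the end of the bar, the TAP2 windows lie between 3.01 and 8.76 kb, and the listed NLRC5 windows end at 36.0 kb of a gene of 94.0 kb.

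The peptide transporter subunits differed in the number of listed windows. TAP1 (ENSG00000168394, minus strand of chromosome 6, RefSeq interval 32845209 to 32853704) had 1 window, at 32847960 to 32848009, with a signal value of 0.91, a p-value of 9.43e-05 and a q-value of 0.004995. Only 0.0449% of listed protein-coding genes had a weaker strongest window. On the opposite strand of the TAP1 interval, 5 windows of PSMB9, an immunoproteasome subunit, and 4 of the lncRNA PSMB8-AS1 were listed between 32845437 and 32845986, toward the 3′ end of TAP1. None of them overlapped the TAP1 window. Their signal values ran from 0.92 to 2.82 in PSMB9 and from 1.98 to 2.92 in PSMB8-AS1, so the lowest was close to that of TAP1. The windows of PSMB9 and PSMB8-AS1 lay on the same strand within the same stretch and were not taken as independent. Of the 9 windows of PSMB9, 7 lay before its own RefSeq interval (32854192 to 32859851), so these windows too rest on a gene model that differs from RefSeq.

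TAP2 (ENSG00000204267, minus strand, RefSeq interval 32821831 to 32838739) had 8 windows in 7 separate regions over 5.8 kb. The strongest, at 32835184 to 32835233, had a signal value of 1.89, a p-value of 1.43e-11 and, after adjustment, a q-value of 8.99e-10, the smallest of all 27 windows. It was also the 1 listed window of the 9 genes under the Bonferroni limit. The window nearest the 5′ end, at 32835684 to 32835733, followed at 1.41, with a q-value of 0.000364. Toward the 3′ side, the windows starting at 32832684 and 32832384 had signal values of 1.37 and 1.36. The windows starting at 32830684 and 32830284 had 1.39 and 1.47, and the adjacent windows starting at 32829984 and 32829934 had 1.01 and 1.63. Of the 8 windows, 7 thus lay under the table's median signal value, and 4 passed a q-value of 0.001. The last of them, at 1.63, had the second highest signal value of TAP2 but the largest q-value, 0.0399.

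The same stretch of RNA was listed again under another gene. AL669918.1 (ENSG00000250264), a protein-coding entry of the table on the same strand, had 9 windows, all inside the RefSeq interval of TAP2, on a grid shifted against that of TAP2. Its windows overlapped 7 of the 8 TAP2 windows by 16 to 34 bp. At the strongest TAP2 window, with 1.89, the overlapping windows of AL669918.1 had signal values of 1.63 and 1.11. In the 7 pairs with the largest overlap, TAP2 had the higher signal value in 5. These pairs cover the same bases in part and were not taken as independent, and the signal of the shared stretch cannot be assigned to TAP2 alone. Without the shared windows, TAP2 kept 1 window.

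TAPBP (ENSG00000231925, minus strand, RefSeq interval 33299694 to 33314078), the gene of tapasin, had 1 window at 33313245 to 33313294, 0.784 kb from the RefSeq 5′ end. Its signal value was 1.57, its p-value 9.44e-06 and its q-value 0.000567. Only 5.23% of listed protein-coding genes had a weaker strongest window. TAPBP and TAP1 were thus each listed with 1 window, as were 29% of listed protein-coding genes.

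NLRC5 (ENSG00000140853, plus strand of chromosome 16, RefSeq interval 56989557 to 57083520) carried the most windows of the group and the 1 window with the highest signal value, while 7 of its 9 windows lay under the table's median. The strongest of its 9 windows, at 56991936 to 56991985, had a signal value of 2.41, a p-value of 4.64e-07 and a q-value of 2.21e-05, and 84.7% of all listed windows were weaker. Another window 1.58 kb from the RefSeq 5′ end had a signal value of 1.86. Further along, the window at 57017086 to 57017135 had 1.65 and that at 57025536 to 57025585 had 1.26. Between them, 5 adjacent windows formed a run of 250 bp from 57020736 to 57020985, the longest region of the 9 genes. Within the run the signal values were 1.67, 1.26, 0.93, 1.13 and 1.43 from 5′ to 3′, so both ends were higher than the middle. The window that opened the run had the smallest p-value listed for NLRC5, 2.18e-07. The strongest NLRC5 window exceeded the strongest window of 64.8% of listed protein-coding genes, and of 51.5% of the 476 genes with a similar number of tested windows.

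The list of NLRC5 windows was incomplete. No gene in the table has more than 9 windows, and 12.8% of listed protein-coding genes have 9. The quotients of q-values and p-values are those of a Benjamini-Hochberg adjustment within each gene, from which the number of windows tested and the position of each window in the gene's order of p-values were computed. For NLRC5 they gave 143 tested windows. The listed windows held positions 2, 3, 4, 9, 10, 11, 13 and 16, and the window at 57025536 to 57025585 could be placed at 5 or 6. Position 16 had a q-value of 0.0481, so at least 16 windows passed a q-value of 0.05, of which 7 are not listed. The window with the smallest p-value of NLRC5 is among those not listed. Skipped positions were present in 693 of 895 genes with 9 windows (77.4%), and 174 of them (19.4%) skipped at least 7. Window numbers in the table ran in order of position in 100% of genes, and those of NLRC5 ended at 9, at 36.0 kb of the 94.0 kb gene. Whether the missing windows lie beyond that point was not tested. In the other 6 genes the listed windows held every position from 1 to their number, so no skipped window was found.

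**Figure D3:**
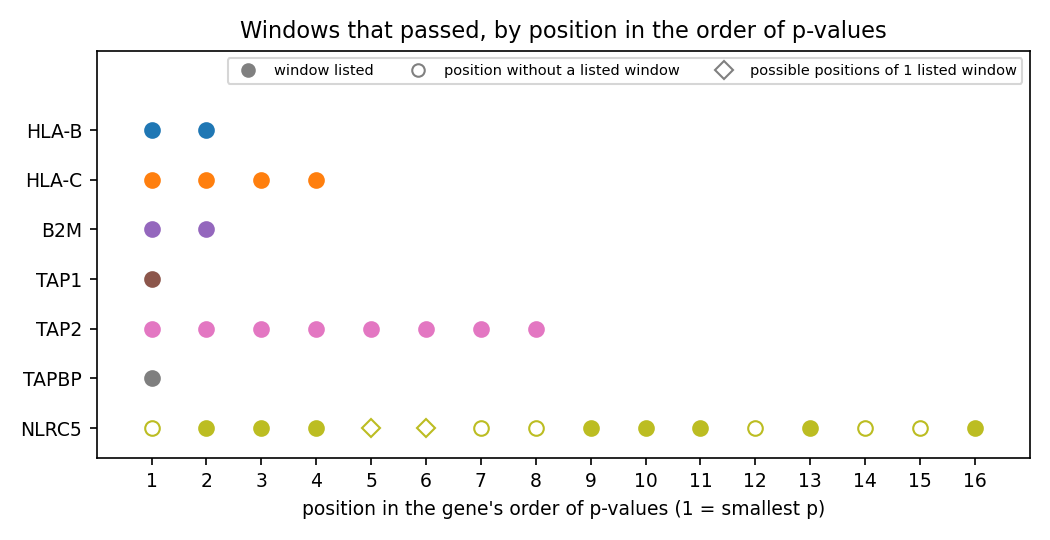
Position of the windows of each gene in its order of p-values (x axis, 1 is the smallest p-value), with listed windows as filled points, positions without a listed window as open circles and the possible positions of 1 listed window as diamonds. NLRC5 shows gaps, including position 1, and the other 6 genes show none.

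The share of tested windows that were listed gave another order of the genes than the number of windows did. For HLA-C, 4 of 19 tested windows were listed (21.1%), a higher share than in 92% of listed protein-coding genes. TAP2 had 8 of 63 (12.7%) and B2M 2 of 17 (11.8%). For HLA-B the share was 2 of 73 (2.74%), for TAP1 1 of 53 (1.89%) and for TAPBP 1 of 60 (1.67%), which was higher than in only 1.75% of such genes. For NLRC5 it was 6.29% as listed and at least 11.2% with the skipped positions counted. Over all windows tested in listed protein-coding genes the share as listed was 8.11%, and the median per gene was 8.7%. Neither value counts skipped positions, so both compare with the 6.29% of NLRC5 and not with its 11.2%. HLA-C, low in signal value, therefore had the largest share of its tested windows listed, and TAP1 and TAPBP had the smallest. This order rests in part on windows of uncertain assignment. Without those shared with AL669918.1, TAP2 had 1 of 63 tested windows listed, and without those outside the RefSeq gene HLA-B had 0 of 73. The tested numbers are the smallest that the quotients allow.

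Small signal values came with small p-values in several of these genes. Each window was set beside all listed windows with a signal value within 0.05 of its own. The strongest TAP2 window had a smaller p-value than 99.3% of 2421 such windows. The second B2M window, at 0.93, had a smaller p-value than 99.3% of 448 windows, and the TAP1 window than 97.4% of 388. The NLRC5 window that opened the run, at 1.67, was ahead of 95.2% of 2801 windows. In contrast, the HLA-C window at 1.12 had a smaller p-value than only 1.39% of 937 such windows, while the other HLA-C windows were ahead of 70.7% to 86.9%. Of the 27 windows, 21 were ahead of more than 50% of windows of similar signal value, and 14 of more than 80%. Read depth at a window is not given in the table.

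**Figure D4:**
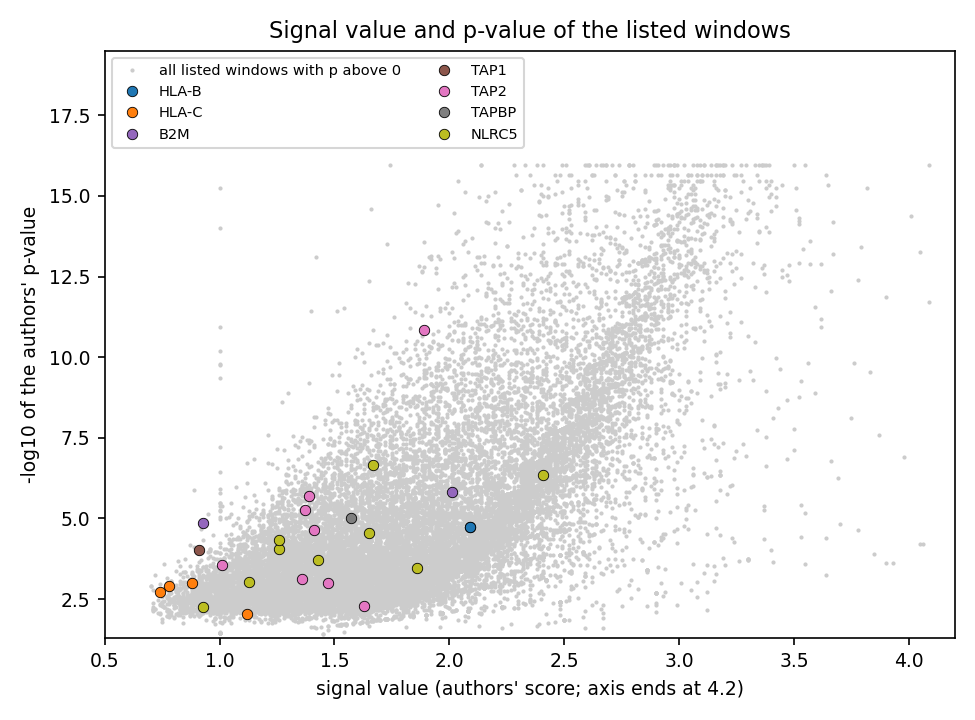
Signal value (x axis, authors' score) and -log10 of the authors' p-value (y axis) of all listed windows with a p-value above 0 (grey) and of the 27 windows of the 7 genes (coloured points). The second B2M window, at a signal value of 0.93, and the TAP1 window, at 0.91, lie on the upper left edge of the cloud, and the strongest TAP2 window, at 1.89, lies above most windows of similar signal value.

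The other genes of class I antigen processing were taken from lists of the proteasome, of folding in the endoplasmic reticulum, of transcription factors, of class I-like molecules and of class I turnover, and MHC class II was added, which gave 44 genes in 6 lists. A window was listed for 27 of them (61.4%), beside the same 31.8% of all RefSeq protein-coding genes, and the median of their strongest windows was 2.11. Of the proteasome genes induced by IFN-γ, 3 of 5 had a window. These were PSMB9, with a strongest window of 2.82, and the activator subunits PSME1, with 2.1, and PSME2, with 2.08, whereas PSMB8 and PSMB10 had none. The PSMB9 value of 2.82 was reached inside the TAP1 interval, before the RefSeq interval of PSMB9, so its assignment to PSMB9 is uncertain. In the endoplasmic reticulum, the chaperones CALR and CANX reached 2.07 and 2.34, the disulfide isomerase PDIA3 reached 2 and the tapasin-related TAPBPL reached 2.14. The peptide-trimming enzymes ERAP1 and ERAP2 and the glucosyltransferase UGGT1 had no listed window.

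Of 10 transcription factors at class I promoters, 4 had a window (40%), beside 31.8% of all RefSeq protein-coding genes. The strongest window of each of these 4 lay above the median of listed protein-coding genes. CREB1 reached 3.59, which exceeded the strongest window of 98.5% of listed protein-coding genes, RFX5 reached 2.85 over 7 windows, and NFYA reached 2.36 over 8. IRF1, which is induced by IFN-γ, reached 2.37. RFX5 and NFYA belong to the complex that holds NLRC5 at class I promoters. The other subunits on the list, RFXAP, RFXANK, NFYB and NFYC, had no listed window, nor had ATF1 and IRF2. All 4 genes that act in class I turnover had a window, from 1.91 in SUSD6 and 1.96 in WWP2 to 2.6 in IRGQ and 2.74 in TMEM127. SUSD6, TMEM127 and WWP2 act together in the removal of class I molecules from the cell surface, and IRGQ directs them to autophagy. By the median of the strongest windows, the 7 listed genes of class I presentation, at 1.89, stood under each of these lists other than MHC class II, at 1.85. The order against MHC class II turned without the windows outside the RefSeq gene, at 1.73, and without the shared TAP2 windows, at 1.57. The 3 listed epithelial markers KRT8, EPCAM and KRT18, with strongest windows of 1.42, 1.7 and 2.25, had a median of 1.7, so low signal values were not particular to the class I genes. The lists are small, were chosen with earlier results of these data known, and no test was run between them.

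**Figure D5:**
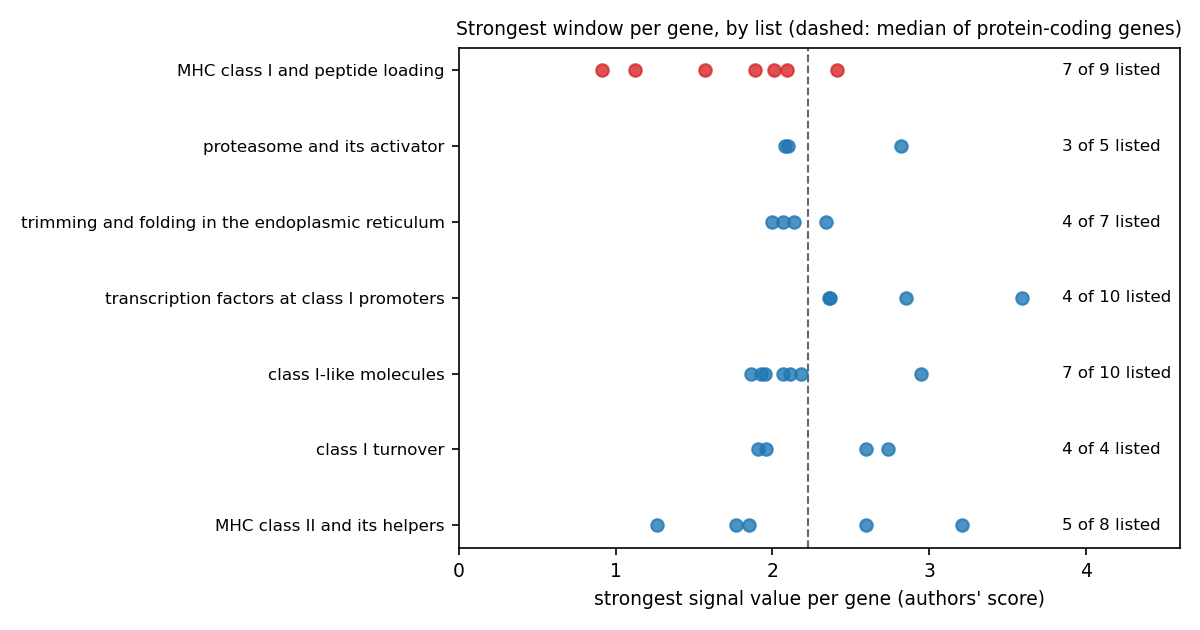
Strongest signal value of each gene with a listed window (points, authors' score on the x axis) for the class I and peptide loading genes (red) and the 6 pathway lists (blue), with the number of genes listed at the right and the median of listed protein-coding genes as a dashed line (2.23). NLRC5 is the 1 red point to the right of the line, and the 4 transcription factors all lie to its right.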

How the data were processed

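Reads were processed by the submitters, whose processing notes name STAR 2.7.3a and the build GRCh38. The peak caller, the handling of reads with several matches and the gene models are not given in the sources used here. The authors deposited 1 table of annotated 50 bp windows with a signal value and a rank (scores by the authors, scale not stated), a p-value and a q-value, with 1 value per window for IP-YTHDF1 against Input. The table has 0 columns per library, so the 2 replicates of each group entered no test here. Of 26820 rows, 1 exact repeat was dropped. The starts in the table count from 0, and coordinates here count from 1.

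Tested windows per gene are the smallest number for which each q-value equals that number times the p-value over a whole position, within the rounding of both, with p-values above 1e-14. For 9 listed windows, 2 misfits were allowed, and 1 for 6 to 8. An estimate was obtained for 7489 genes. This step was tested on simulated data with known answers. Protein-coding genes were matched to RefSeq (GRCh38.p14) by symbol or unambiguous synonym, and RefSeq gene intervals gave distances. Of the 9 genes, 7 had a RefSeq promoter sequence (250 bases before to 50 after the start). Exons and untranslated regions were not used here. All 9 genes, each with its windows, and the 27 of the 44 list genes that had a window were named by rule, and genes that overlap them were added. The genes and lists were chosen with earlier results of these data known. The software was Python 3.11.15 with pandas 2.3.3, NumPy 2.4.6 and matplotlib 3.10.9. Results were recomputed with a stricter q-value, the median signal value, a Bonferroni limit, all scaffolds, joined windows, genes of similar tested length and, chosen after seeing the data, leaving out windows outside the RefSeq gene or shared with AL669918.1 and counting skipped positions.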

Additional observations from a re-analysis of the deposited data

How the results depend on the processing

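Of the 9 genes, 7 kept a window with all scaffolds included and without the TAP2 windows shared with AL669918.1, 6 without the windows outside the RefSeq gene and 5 with q-values limited to 0.001. At or above the table's median signal value, 4 genes and 6 windows were left (HLA-B, B2M, TAP2 and NLRC5), with a median strongest signal value of 2.05. Among these, the 2 HLA-B windows lie outside the RefSeq gene, and the TAP2 window is shared with AL669918.1. The share of all genes left at this limit was not computed. The Bonferroni limit left 1 gene, TAP2, with 1 window, and so a median of 1 window per gene in place of 2. With q-values limited to 0.001, 11 of 27 windows were left and the median strongest signal value was 2.01 in place of 1.89. These counts follow from the stricter limits themselves. That median was 1.73 without the windows outside the RefSeq gene and 1.57 without the shared TAP2 windows, as the strongest windows of HLA-B and TAP2 were left out. Joining touching windows gave 21 regions, and counting skipped positions gave at least 34 windows. Against genes with a similar number of tested windows, the percentile of the strongest window moved by -13.3 to 9 points. No paired analysis was possible because no replicate has a column of its own in the table, and leaving out a replicate was not run for the same reason. The transcript part of each window and the motif share over all windows of these genes were not run, since no genome was used here.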

Other observations

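MHC class II genes, which IFN-γ also induces and which present peptides to CD4+ T cells, were listed in part. Of 8 genes, 5 had a window (62.5%), beside 31.8% of all RefSeq protein-coding genes, whether expressed in SNU638 cells or not. CIITA, the class II activator and the closest functional counterpart of NLRC5, had 9 listed windows with signal values from 1.8 to 3.21, and its strongest window exceeded that of 95.3% of listed protein-coding genes. Its listed windows reached position 41 of 196 tested windows in the order of p-values, so most windows that passed in CIITA are not listed. HLA-DMA, which edits class II peptides, had 3 windows with a strongest value of 2.6. HLA-DRA, HLA-DRB1 and the invariant chain CD74 had 1 window each, at 1.77, 1.85 and 1.26. HLA-DPA1, HLA-DPB1 and HLA-DMB had no listed window.

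Class I-like molecules had a window in 7 of 10 genes (70%), beside 31.8% of all RefSeq protein-coding genes, whether expressed in SNU638 cells or not. The NKG2D ligands ULBP3, MICA, MICB and ULBP1 reached 2.95, 1.95, 1.86 and 2.11, and ULBP2 had no window. MR1, which presents vitamin metabolites, reached 2.18 over 4 windows, and HFE, a regulator of iron uptake, had 1 window of 1.93. HLA-G had 1 window of 2.07, and the class I pseudogene HLA-H, looked up after other values were seen, had 2 windows, of 2.11 and 2.22, all of them stronger than every HLA-C window. FCGRT and CD1D had no listed window. Of the epithelial markers, CDH1 had no listed window. No window was listed for the leukocyte markers PTPRC and CD3E.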
